A study of Drosophila melanogaster with 6 samples.

Results

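The pleated septate junction core is the group of proteins that builds the ladder-like barrier between neighbouring epithelial cells of the fruit fly Drosophila melanogaster. It was followed here through 10 named genes, cora, Nrx-IV, Nrg, Cont, Gli, sinu, Mcr, kune, Lac and vari. A gene was measured where the platform annotation gave it a probe set, a group of array probes for a transcript, that named no other gene. That held for 9 of the 10 genes, out of 10844 genes on the array. Mcr, a macroglobulin and complement relative that the junction needs, had no such probe set and was not analysed here. Each of the 9 genes had 1 probe set, so no choice between probe sets was made.

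RNA came from oviducts, the ducts that carry eggs from the ovary. The 3 mated arrays held oviduct RNA of 3-day-old females dissected 3 h after mating ended, and the 3 unmated arrays held oviduct RNA of unmated females of the same age dissected in parallel. All flies lived at 23 °C under 12 h of light, and no strain, allele or agent is named in the labels. Tracts of 400 to 500 females were pooled. Arrays of a group are called biological repeats, but the labels do not say whether each array had a pool of its own, so the p-values measure only the spread between arrays, which may be partly technical. The number of arrays, 3 per group, limits the precision of every value.

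Septate junctions take the place in invertebrate epithelia that tight junctions take in vertebrates: they slow the leak of solutes between cells. The core proteins form a large and very stable complex along the lateral membrane, and in fly embryos the loss of 1 core protein usually displaces the others. The same complex seals the glial sheath around fly nerves, so nerve tissue is a second place where these genes are active. The series title names a developmental switch in the oviduct after mating, and the comparison here asks whether the transcripts of the junction core differ with it.

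No core gene passed the test between mated and unmated oviducts, and neither did any of the 13966 probe sets tested (0.0%). The log2 difference, mated minus unmated, was above 0 for the claudin-family genes sinu and kune, the Ig-domain genes Nrg and Lac, and cora, and below 0 for Gli, vari, Cont and Nrx-IV. It ran from -0.58 for Gli to 0.44 for sinu, and every 95% interval included 0. Under the 17 other settings tried, some of which could not turn a sign, the sign stayed the same for Nrg and Lac alone. It turned at least once in the other 7 genes. Among them were cora and Nrx-IV after quantile normalization and Cont and vari after median centring. The clearest pattern in the 9 genes ran across the group labels. Mated array 1 and unmated array 3 held the 2 highest or the 2 lowest of the 6 values in 8 of the 9 genes. They also did so in 34.2% of all genes above the median level. That pair was picked out after the values had been seen.

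Some facts about the arrays touch every result below. The deposited values are intensities, the brightness of a probe set on a linear scale. Median intensity was 66.45, 66.1 and 60.6 on mated arrays 1, 2 and 3, against 86.2, 86.0 and 62.4 on unmated arrays 1, 2 and 3, so unmated arrays 1 and 2 stood apart. Among the 15 pairs of arrays, the highest correlation across the 6983 probe sets above the median level was 0.951, between mated array 1 and unmated array 3, which carry different labels and are called the like pair here. The next was 0.930, between unmated arrays 1 and 2. In deviations from group means across the same probe sets, 3 of the 9 pairs of a mated and an unmated array correlated above 0. These were mated array 1 with unmated array 3 at 0.45 and mated array 2 with unmated array 1 at 0.42. The other was mated array 3 with unmated array 2, at 0.39. Deviations within a group sum to 0, so each array must correlate above 0 with some array of the other group. That these pairs take in all 6 arrays is therefore no finding. No label links the arrays of a pair, so the pairs were not used as blocks. Whether paired arrays shared a batch or carry a wrong label was not tested. The ratio of the 3' to the 5' GAPDH control probe sets, a measure of RNA integrity, was 29.3 on mated array 2 and 29.1 on unmated array 3, and 17.1 to 20.0 on the other 4, so it did not follow the like pair. The same ratio for actin ran from 29.7 on unmated array 1 to 42.0 on mated array 2. Both ratios were far above 1 on all 6 arrays, a 3' bias that may limit every value below.

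Muscle and epithelial markers of the labelled tissue were measured, the muscle markers brighter on the whole than the epithelial ones. The myosin light chain gene Mlc2, a marker of the muscle sheath around the duct, was the brightest probe set on each array, at 21813 to 30277 in mated and 21465 to 27096 in unmated oviducts. Of 5 measured epithelial markers, 3 lay above the median gene. The apical determinant crb, the brightest, stood at 411.3 to 603.4 in mated and 366 to 635.4 in unmated oviducts, and the octopamine receptor gene Octbeta2R, which acts in ovulation, at 242.9 to 653 in mated and 245.9 to 405.3 in unmated oviducts. The other 4, the cadherin gene shg and the polarity genes baz, sdt and par-6, were dimmer, at 24.1 to 150 in mated and 22.9 to 229.7 in unmated oviducts. Oamb and the epithelial genes arm and Fas3 were not analysed here. Summed intensities of 5 neuronal markers were low, 155.6 to 208.9 in mated and 145.4 to 171.7 in unmated oviducts, and none of the 5 lay above the median gene. In whole tissue, fewer cells of a type and less RNA per cell cannot be told apart.

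All 9 core genes lay above the median gene in mean level. Brightness of a probe set depends on its probes as well as on the transcript, so the place of each gene among the probe sets of its array is given only to show how far it stood above the dim range. Nrg, Lac, kune, cora and Cont stayed between percentiles 94.0 and 98.2 on every array. Nrx-IV, Gli, vari and sinu lay lower and spread wider, between percentiles 59.2 and 85.1.

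Nrx-IV is the transmembrane organiser of the complex, a relative of the vertebrate Caspr proteins, and its cytoplasmic tail binds the scaffold protein Cora. Its intensity was 136.6, 467.9 and 365 on mated arrays 1, 2 and 3, against 369.9, 375.9 and 168.5 on unmated arrays 1, 2 and 3. Mated array 1 and unmated array 3 were low and the other 4 arrays lay close together, so the groups overlapped fully. The means were 323 ± 170 in mated and 305 ± 118 in unmated oviducts (SD, n = 3 each). The log2 difference was -0.0021 ± 0.57 (SE), with a 95% interval from -1.35 to 1.35, and the adjusted p in limma was 0.999. That interval is wide enough to hold a change of more than 2-fold in either direction.

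Nrg encodes Neuroglian, an Ig-domain adhesion protein of epithelia and neurons. It had 3678.2, 4797.1 and 3591.6 in mated oviducts, against 3068.9, 2707.7 and 3888.7 in unmated oviducts. The 3 mated arrays exceeded unmated arrays 1 and 2, while unmated array 3 lay among the mated values. Its log2 difference was 0.32 ± 0.33 (SE), adjusted p = 0.915 in limma.

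Cont encodes Contactin, an Ig-domain protein held to the membrane by a lipid anchor, which forms a complex with Nrx-IV and Nrg at the junction. Intensities of 1314.2, 1853.9 and 1521 in mated oviducts stood against 2113.7, 1760.2 and 1483.2 in unmated oviducts. The lowest values were again those of mated array 1 and unmated array 3, and the groups overlapped, with a log2 difference of -0.19 ± 0.33 (SE).

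Lac encodes Lachesin, another lipid-anchored Ig-domain protein, which in the fly trachea limits tube length. On mated arrays 1, 2 and 3 it measured 2156.1, 3829.3 and 3671.4, against 2675.3, 2467.9 and 2456.6 in unmated oviducts. Mated arrays 2 and 3 were the highest of the 6 and mated array 1 the lowest, while the unmated arrays differed little, with an SD of 123 against 924 in the mated group. The log2 difference was 0.30 ± 0.35 (SE).

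Of the cytoplasmic scaffold genes, cora encodes the FERM-domain protein Coracle that links Nrx-IV to the cell cortex. Its intensity was 1742.6, 1612.1 and 1683.5 in mated oviducts, against 1304.6, 1505.4 and 2226.8 in unmated oviducts. The mated values lay close together and inside the range of the unmated ones, with means of 1679 ± 65.3 in mated and 1679 ± 485 in unmated oviducts (SD, n = 3 each). The log2 difference was 0.038 ± 0.34 (SE), with a 95% interval from -0.76 to 0.83. The second scaffold gene, vari, encodes Varicose, a membrane-associated guanylate kinase that also binds Nrx-IV. It had 373.8, 168.6 and 126.3 in mated oviducts, against 202.3, 215.1 and 296.5 in unmated oviducts. Here mated array 1 and unmated array 3 were the highest of the 6, the opposite of Nrx-IV, and the log2 difference was -0.23 ± 0.47 (SE).

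The genes sinu and kune encode claudin-family proteins, Sinuous and Kune-kune, membrane proteins of the same broad family as vertebrate tight junction claudins. Intensities of sinu were 252.3, 239.8 and 231 in mated oviducts, against 165.6, 128.3 and 266.1 in unmated oviducts. Those of kune were 2793.6, 2465.5 and 2448.8 in mated oviducts, against 2108.6, 1857 and 2973.1 in unmated oviducts. Both genes placed the 6 arrays in the same order, with unmated array 3 highest, then the mated arrays 1, 2 and 3, then unmated arrays 1 and 2. The log2 difference of sinu, the largest upward one of the core, was 0.44 ± 0.37 (SE), with a 95% interval from -0.44 to 1.31 and an adjusted p of 0.886 in limma. That of kune was 0.18 ± 0.33 (SE).

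Gli encodes Gliotactin, a cholinesterase-like transmembrane protein that sits where 3 cells meet. Its intensity was 152.1, 262.9 and 293.5 in mated oviducts, against 478.1, 447 and 184.6 in unmated oviducts. Unmated arrays 1 and 2 were the highest of the 6, and unmated array 3 fell within the mated range, next to mated array 1. The log2 difference of -0.58 ± 0.49 (SE) was the largest downward one of the core, with a 95% interval from -1.74 to 0.57 and an adjusted p of 0.883 in limma.

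**Figure D1:**
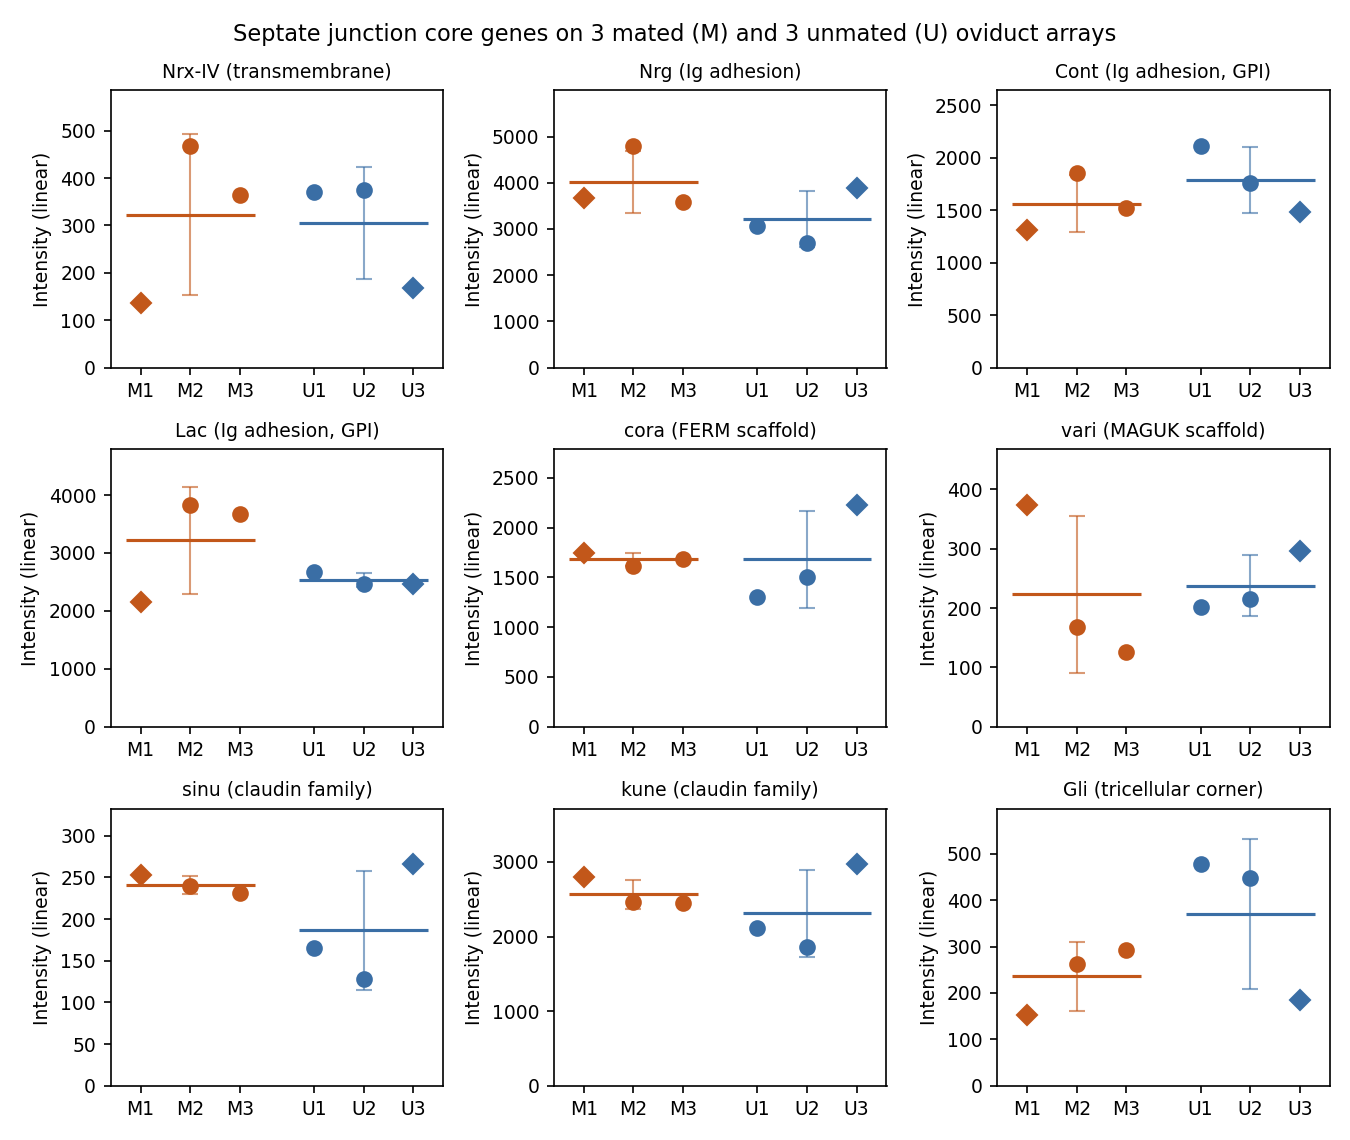
Deposited intensity (linear scale, from 0) of the 9 measured core genes on mated arrays 1 to 3 (M) and unmated arrays 1 to 3 (U); diamonds mark mated array 1 and unmated array 3, horizontal lines the group means and bars the SD over 3 arrays. The diamonds lie together at the top or at the bottom of most panels, and the groups overlap in all 9.

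Read over the 9 genes, 0 passed at an adjusted p of 0.05 in limma, where 0.0% of the 13966 probe sets tested did. At an unadjusted p of 0.05, 0 of 9 core genes passed, against 6.23% of genes. The 3 mated values lay wholly above or wholly below the 3 unmated ones in 0 of 9, against 10.9% of genes. The adjusted p of the 9 genes ran from 0.883 to 0.999. The median log2 difference was 0.038 for the core and -0.16 for all genes. Of the core, 5 of 9 genes lay above 0, against 37.8% of genes, and 6 of 9 lay above the all-gene median, where 50.0% of genes do by definition. Scaling moved the median of all genes from -0.16 as deposited to 0.11 after median centring, so a difference is best read against that median. On that basis the core's median was 0.19. All 9 core genes lay above the median gene in level. Against genes above the median level, whose median was -0.041, the core's median was only 0.079. Relative to all genes it was 0.018 after quantile normalization, 0.043 after cyclic loess, 0.43 with array weights and 0.53 without unmated array 3.

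The core's median level, centred on each gene's mean and set against all genes, was 0.11, 0.18 and 0.14 on mated arrays 1, 2 and 3, against -0.28, -0.35 and 0.23 on unmated arrays 1, 2 and 3. Unmated array 3 was thus the highest of the 6, and unmated arrays 1 and 2 were the lowest. Summed markers of other tissues were high on those same arrays. Summed intensities of 13 ovary and eggshell markers were 3669, 1882 and 2972 on mated arrays 1, 2 and 3, against 12538, 12746 and 3050 on unmated arrays 1, 2 and 3. Summed over 8 midgut and tubule markers, the values were 749, 702.5 and 523 on the mated arrays, against 2951, 3579 and 962 on the unmated arrays. No marker of either list was at 0, and among the dimmest were the germline gene bam, at 5.1 to 14.8 in mated and 4.0 to 12.6 in unmated oviducts, and NaPi-T, at 3.7 to 23.5 in mated and 5.2 to 51.5 in unmated oviducts. Unmated arrays 1 and 2 both exceeded mated arrays 2 and 3 in 11 of these 13 and 6 of these 8 markers. The share over all genes was 34.1%. Some markers peaked elsewhere, with Vm26Aa highest on mated array 1, at 1500, and LManII on unmated array 3, at 408. The part of these markers in the result was not tested. When unmated arrays 1 and 2 were dropped, leaving 3 mated arrays against 1 unmated array in a fit that assumes the lone array varies like the others, the core's median relative to all genes was 0.030.

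The order of the arrays was then read for each gene, a step chosen after the values had been seen. Mated array 1 and unmated array 3 were the 2 highest arrays for cora, sinu, kune and vari, and the 2 lowest for Nrx-IV, Cont, Gli and Lac. That is 8 of 9 core genes, against 34.2% of the 5422 genes above the median level and 26.2% of all genes. For Lac the margin was small, since unmated array 3 lay only just below unmated array 2, at 2456.6 and 2467.9. Margins were also small for Cont, cora and sinu. In Cont, unmated array 3 had 1483.2 and mated array 3 had 1521. In cora, mated array 1 had 1742.6 and mated array 3 had 1683.5. In sinu, mated array 1 had 252.3 and mated array 2 had 239.8. Nrg was the exception, with mated array 2 above both. Unmated arrays 1 and 2 formed the extreme pair in 5 of 9 core genes, against 28.8% of genes above the median level. No other pair did so in more than 2 of 9. These counts describe 9 genes whose values share the same 6 arrays, and they were given no test.

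**Figure D2:**
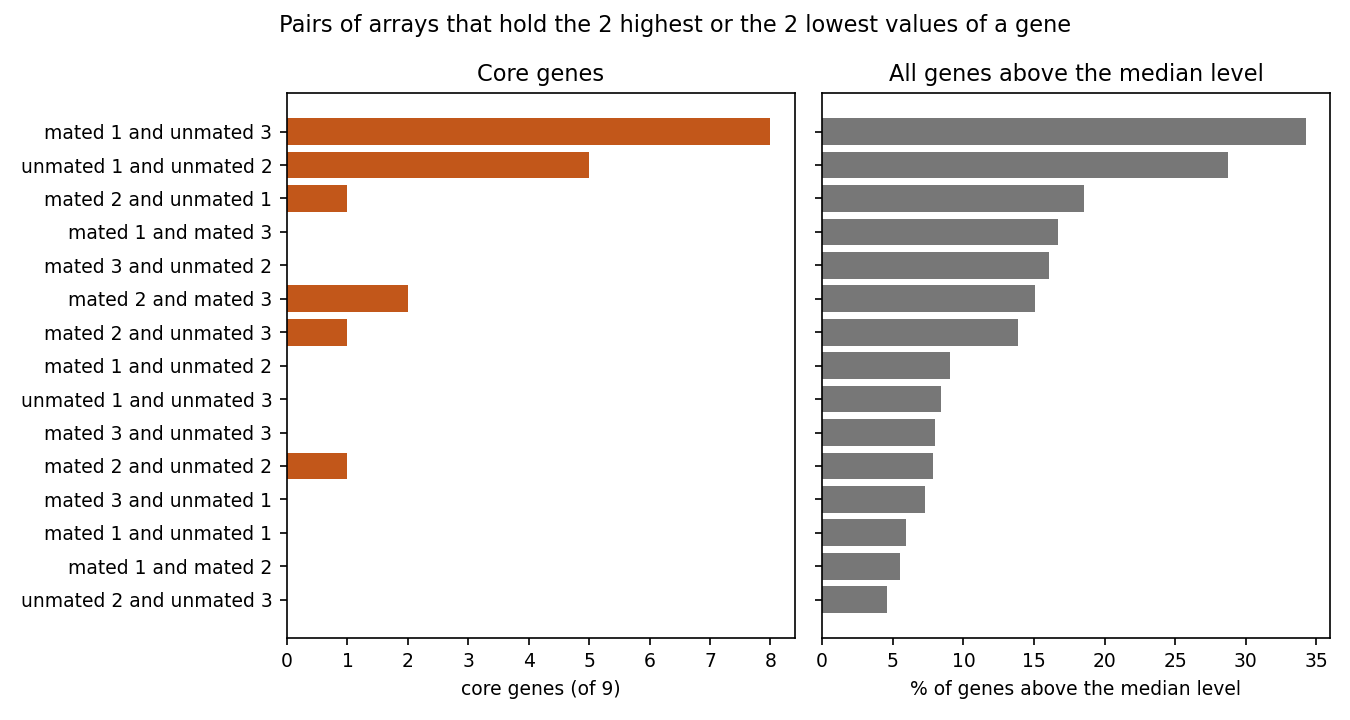
For each of the 15 pairs of arrays, the number of the 9 core genes (left) and the percentage of genes above the median level (right) for which that pair held the 2 highest or the 2 lowest values. Mated array 1 with unmated array 3 leads in both panels, with 8 core genes and 34.2% of genes.

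Core genes therefore did not move as a block between arrays. Nrx-IV, Gli and vari each varied over about 3-fold between their highest and lowest array, by factors of 3.43, 3.14 and 2.96, whereas cora, Nrg, Cont, kune and Lac stayed within factors of 1.60 to 1.78 and sinu within 2.07. The scaffold gene vari was highest where its partner Nrx-IV was lowest. Some muscle and glial markers shared the pattern of the like pair. Mated array 1 and unmated array 3 had the 2 highest values in 2 of 6 muscle markers, Tm2 and Mlp60A, and the 2 lowest in 0. For Tm2 these were 11489 and 11066 against 5680 to 7845 on the other 4 arrays. Of genes above the median level, 15.1% had the like pair highest and 19.1% had it lowest, 34.2% in all. Mlc1 did not share the pattern, with 10885 on mated array 1 and 15164 on unmated array 3. The like pair had the 2 lowest values in 2 of 6 glial markers, repo and nrv2, and the 2 highest in 1, moody, beside those same shares. For repo these were 48.2 and 40.4 against 91.6 to 149.6, and nrv2 is itself a junction gene. Summed over the 6 muscle markers, intensity was 48936 to 65938 in mated and 44741.5 to 65937 in unmated oviducts. Over the 6 glial markers it was 1756.5 to 2474 in mated and 1920.5 to 2326 in unmated oviducts. In neither list was a marker at 0, and the part of these cells in the core's pattern was not tested.

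With the like pair left out, also a choice made after the values had been seen, 2 mated arrays stood against 2 unmated ones. The groups then did not overlap in 7 of 9 core genes, against 46.9% of genes. They were higher in mated oviducts in 5 of 9, cora, Nrg, sinu, kune and Lac, against 12.8% of genes, and lower in 2 of 9, Gli and vari, against 34.1%. These shares are over all genes, dim ones included, and none was taken over genes above the median level. Unmated arrays 1 and 2 were the 2 lowest for cora, Nrg, sinu and kune, and the 2 highest for Gli. For those genes the direction without the like pair was already given by that order. The log2 difference was 0.69 for sinu, 0.55 for Lac, 0.53 for Nrg, -0.52 for vari and -0.73 for Gli, and the core's median relative to all genes was 0.48. No core gene passed in that fit either, with adjusted p in limma from 0.418 to 0.883. Of these 7 genes, only Gli had the same direction on the 2 arrays left out. Mated array 1 lay below unmated array 3 in 8 of 9 core genes, against 47.4% of genes, with ratios from 0.783 for cora to 0.948 for sinu, and vari alone was higher, at 1.26.

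**Figure D3:**
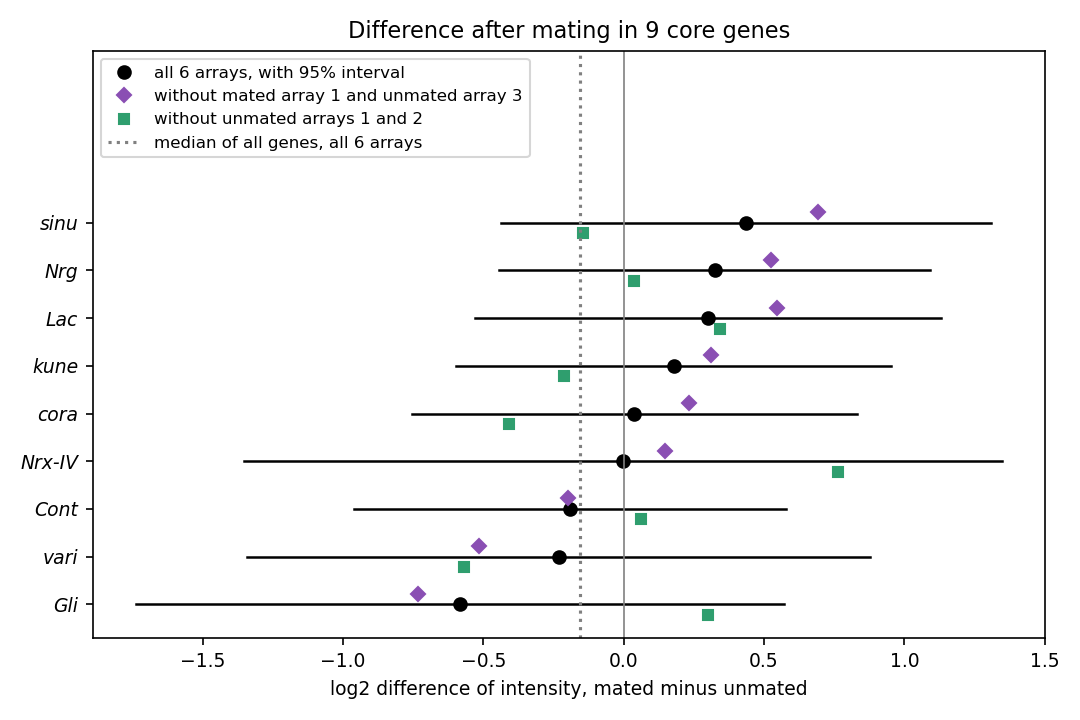
log2 difference of intensity, mated minus unmated, for the 9 core genes, with all 6 arrays (black, 95% interval), without mated array 1 and unmated array 3 (purple) and without unmated arrays 1 and 2 (green); the dotted line is the median of all genes. Every black interval includes 0, and the green and purple points fall on opposite sides of 0 for cora, kune, sinu, Gli and Cont.

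Other genes of the junction were read from lists of 29 genes, of which 25 were measured. None of the 25 passed at an adjusted p of 0.05 in limma, and 1 had an unadjusted p under 0.05, against 6.23% of genes. The groups did not overlap in 2, against 10.9% of genes. In both, Ank2 and mesh, the mated values were the lower ones, as in 8.43% of genes. Their median log2 difference was -0.12, or 0.040 relative to all genes, and 15 of 25 lay above the all-gene median.

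The accessory list of the pleated junction had 12 of 14 genes measured, 5 above 0 and 7 below. The Na pump alpha subunit Atpalpha and the adhesion gene Fas3 were not analysed here. The third claudin-family gene, pck, had 1210.4, 729.7 and 1111.9 in mated oviducts, against 1110.1, 1339.2 and 1045.5 in unmated oviducts, an order unlike that of sinu and kune. Tsf2 encodes melanotransferrin, an iron-binding protein needed to assemble the junction. It had 1040, 4464.1 and 4985.8 in mated oviducts, against 3359.8, 4467 and 1349.2 in unmated oviducts, so it was low on the same arrays as Nrx-IV. Its means were 3497 ± 2143 in mated and 3059 ± 1581 in unmated oviducts (SD, n = 3 each).

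Small lipid-anchored proteins of the junction, which act in the assembly or transport of the complex, are encoded by bou, crok, cold and crim. Of these, bou had 1231, 1378 and 1192.1 in mated oviducts, against 672.5, 633.8 and 1323.9 in unmated oviducts, with the 3 mated values above unmated arrays 1 and 2 as in sinu, kune and Nrg. For crok the values were 306.3, 227.2 and 184.5 in mated oviducts, against 66, 179.6 and 249.7 in unmated oviducts. Both overlapped between groups, with log2 differences of 0.61 ± 0.39 and 0.71 ± 0.54 (SE), while those of cold and crim were -0.0013 and -0.14.

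Ankyrins tie Neuroglian-type proteins to the membrane skeleton. The gene Ank had 340.3, 1158.3 and 721.4 in mated oviducts, against 1082.9, 1100.8 and 303.6 in unmated oviducts, again lowest on the like pair. Ank2, the ankyrin known from fly neurons, had the smallest p of all 25 genes. It stood at 39.5, 29.2 and 30.3 in mated oviducts, against 85, 87.1 and 65.2 in unmated oviducts, and the groups did not overlap. Its log2 difference was -1.26 ± 0.32 (SE), unadjusted p = 0.0055 and adjusted p = 0.650 in limma. The other 3 probe sets of Ank2 were dimmer, at 0.8 to 29.9, with log2 differences from -0.29 to 0.20, so its probe sets did not share the difference.

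At the corners where 3 cells meet, Gliotactin is joined by Anakonda, encoded by bark, and by the membrane protein M6. Intensities of bark were 213.7, 50.2 and 140.5 in mated oviducts, against 45.7, 64 and 205.5 in unmated oviducts, highest on the like pair. Those of M6 were 172.4, 1299.3 and 858.1 in mated oviducts, against 1507.4, 878.6 and 184.5 in unmated oviducts, lowest on the like pair, with a factor of 8.74 between the highest and lowest array. A second probe set of M6 did not show this and stayed between 113.7 and 173.1. Of the 3 corner genes, Gli and M6 were thus low on the arrays where bark was high.

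Smooth septate junctions, the gut and renal tubule form, use another set of proteins. Ssk, mesh and Tsp2A, which depend on each other in the fly gut, and hoka were all measured. Only mesh had groups that did not overlap, with 139.6, 182.8 and 117 in mated oviducts, against 266.7, 195 and 263.4 in unmated oviducts, a log2 difference of -0.73 ± 0.34 (SE) and an adjusted p of 0.762 in limma. A second probe set of mesh was dim, at 2.5 to 15.5, with overlapping groups and a log2 difference of -0.36. Ssk, a partner of mesh, had 728.6, 804.4 and 596.7 in mated oviducts, against 540.3, 567.9 and 785.8 in unmated oviducts. Tsp2A had 164.2, 153.5 and 111.5 in mated oviducts, against 131, 141.5 and 149.7 in unmated oviducts. The partners of mesh therefore did not show its difference, and hoka was dim, at 5.6 to 11.8 in mated and 5.4 to 22.8 in unmated oviducts.

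Of the lateral polarity genes, scrib had 412.1 to 694.9 in mated and 412.3 to 622.9 in unmated oviducts, l(2)gl had 29.6 to 81 in mated and 27.9 to 141.1 in unmated oviducts, and dlg1 was dim on both of its probe sets. The chitin deacetylase genes serp and verm, whose proteins need the junction to reach the lumen of the trachea, had log2 differences of -0.55 and -0.45. A second probe set of serp, at 18.2 to 28.8, had 0.049, so the probe sets of serp did not share the difference. Vps35 of the retromer, which recycles membrane proteins, and shrb of the ESCRT machinery had -0.29 and 0.10. All 7 had overlapping groups. In the 25 genes, mated array 1 and unmated array 3 held the 2 highest or the 2 lowest values in 11 of 25. That share lay between that of the core and that of genes above the median level. Among the 11 was scrib, lowest on both arrays. A second probe set of scrib, at 111.6 to 249.7, was instead highest on mated array 1.

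**Figure D4:**
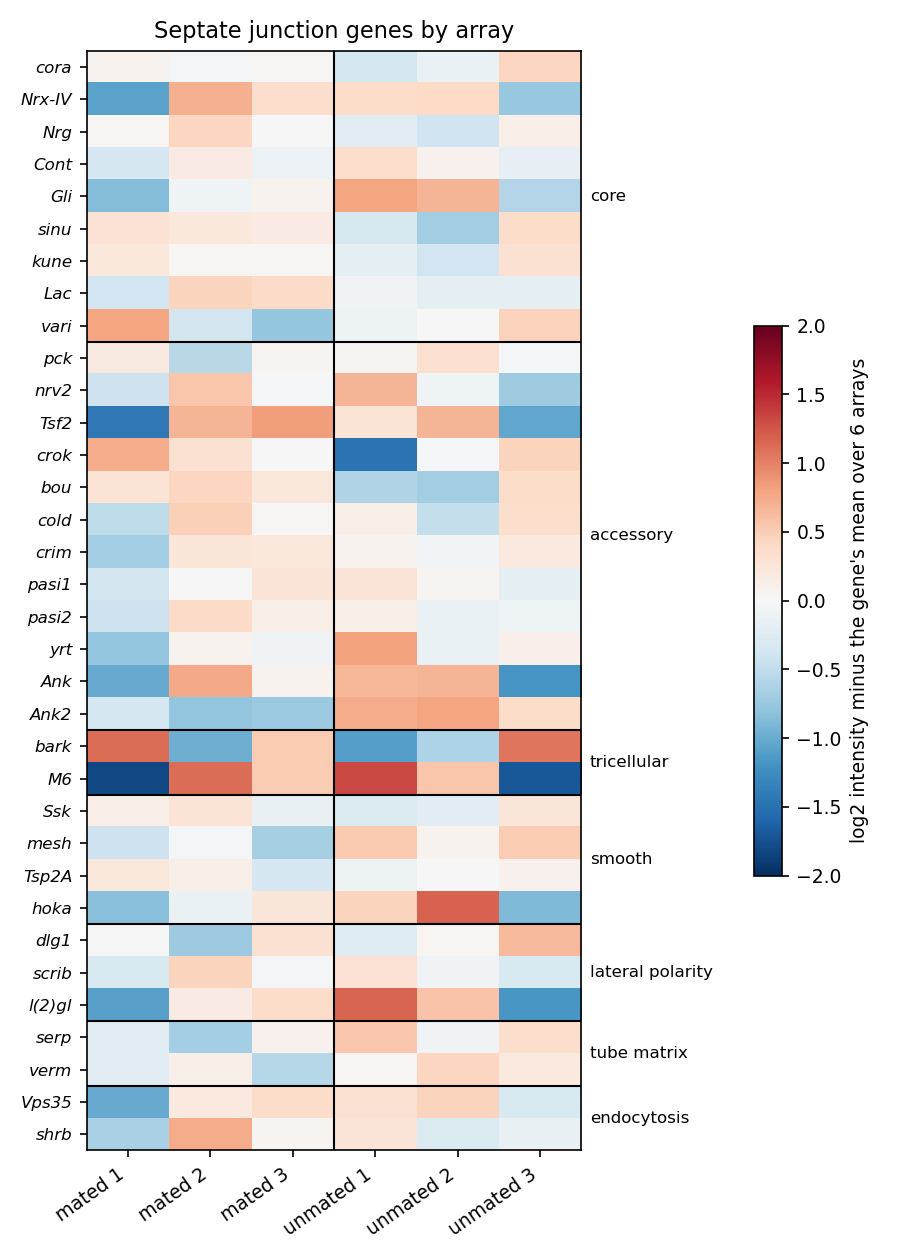
log2 intensity of the 9 core and 25 other septate junction genes on each array, minus the gene's mean over the 6 arrays (red higher, blue lower, colours capped at 2 in either direction); lines separate the lists. Columns mated 1 and unmated 3 share their colour in most core rows and in Tsf2, Ank, M6 and bark.

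Genes whose array pattern lay closest to the core's median pattern were sought among 5413 other genes above the median level, by the root mean square difference of centred log2 values over the 6 arrays. The 5 closest were Mdh1, BORCS6, Tbcd, Cyt-b5 and Dsor1, with differences of 0.048 to 0.067. The median over all 5413 was 0.39, and the core genes lay from 0.15 for kune to 0.70 for Nrx-IV. The core's median pattern was nearly flat, from -0.14 on unmated array 2 to 0.16 on mated array 2. A search against it favours genes that vary little and does not show likeness to any single core gene.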

How the data were processed

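Oviduct RNA of 3 mated and 3 unmated samples was measured on Affymetrix Drosophila arrays with a biotin label. The authors deposited 1 linear intensity per probe set and array. Per the submitters' processing notes RMA was used, with no version. The values are linear and their quartiles vary from array to array, unlike usual RMA output, so the summary and scaling remain unknown. Detection calls were not used here.

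The 44 control probe sets were left out, leaving 13966, of which 12443 had 1 gene, 327 several and 1196 were not listed. Symbols were updated through Entrez identifiers against RefSeq (assembly Release 6 plus ISO1 MT, names only) for 12394. Each gene was represented by its probe set with the highest mean log2.

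log2 intensities, with no offset, were compared by limma 3.58.1 (lmFit, eBayes, two-sided) in R 4.3.3, adjusted over all 13966 probe sets by Benjamini-Hochberg at 0.05. The fit was tested on simulated data. All core genes, all genes of the junction lists and the 5 genes nearest the core's pattern could be named. Members and lists were chosen with earlier results of these data known.

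Other settings tried were median centring, quantile normalization, cyclic loess, probe sets above the median level, 32 added before log2, trend and robust variance, array weights, a replicate block, each array left out, unmated arrays 1 and 2 left out, averaging of all probe sets of a gene and an adjusted p of 0.01. The omission of mated array 1 and unmated array 3 was added after the values had been seen.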

Additional observations from a re-analysis of the deposited data

How the results depend on the processing

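No core gene and no probe set passed under any alternative, trend and robust settings among them. With none passing at an adjusted p of 0.05, none could pass at 0.01. The lowest adjusted p of a core gene in limma was 0.338. The core's median relative to all genes, 0.19, was 0.079 when only probe sets above the median level were used. It was 0.43 with array weights and 0.48 without mated array 1 and unmated array 3, and ran from 0.14 to 0.53 with each array left out in turn. Its highest value, 0.53, was without unmated replicate 3. Trend and robust variance, the replicate block, the filter on level and averaging of probe sets could not turn the sign of a core gene. Under the rest, only Nrg and Lac kept the sign of their difference throughout. That of cora, 0.038, was -0.043 after quantile normalization, -0.031 after cyclic loess, -0.41 without unmated arrays 1 and 2, and as low as -0.13 and -0.022 without unmated replicate 1 or 2. That of Nrx-IV, -0.0021, was 0.016 after quantile normalization, 0.26 after median centring, 0.044 after cyclic loess, 0.0086 with 32 added, 0.76 without unmated arrays 1 and 2, 0.15 without mated array 1 and unmated array 3, and 0.53, 0.18 and 0.19 without mated replicate 1, unmated replicate 1 and unmated replicate 2, with a lowest value of -0.38 without unmated replicate 3. After median centring Cont was 0.074 and vari 0.034, and with each array left out in turn vari ran from -0.68 without mated replicate 1 to 0.098 without mated replicate 3. Without unmated arrays 1 and 2, Cont was 0.061, Gli 0.30, sinu -0.14 and kune -0.21. The cause was not tested. Deviations from the group means correlated at -0.40, -0.11 and -0.30 across probe sets between same-numbered arrays. The 3 pairs across other numbers given above correlated at 0.45, 0.42 and 0.39. Deviations within a group sum to 0, so negative values must accompany positive ones. Whether same-numbered arrays shared a batch was not tested. With the replicate block the count of calls stayed at 0. The core's median relative to all genes stayed at 0.19, since a block in this balanced design cannot change the differences themselves. Over all probe sets, 145 were higher and 776 lower at an unadjusted p of 0.05, and 327 and 420 after quantile normalization.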
